A study of Mus musculus with 6 samples.

Results

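The transcripts described here encode the hypoxia-inducible factors (HIFs) and the proteins that set their activity by oxygen. They were taken by gene symbol from the table of normalised counts and number 9 of 24972 gene names, namely the alpha subunits Hif1a, Epas1 and Hif3a, the beta subunit Arnt, the prolyl hydroxylases Egln1, Egln2 and Egln3, the asparaginyl hydroxylase Hif1an and the ligase receptor Vhl. Poly(A) RNA had been sequenced from mouse neural stem cells (NSCs) kept as 6 primary cultures. Of these, 3 were Tsc2 wt/wt and 3 Tsc2 mut/mut in the study's terms (mut/mut libraries). All were grown as monolayers with EGF and FGF from the ventricular-subventricular zone (V-SVZ) of neonatal pups, and per the study's methods pups of either genotype carried a Nestin-driven, tamoxifen-activated Cre (Nes-cre/ERT2) and a tdTomato reporter, and were injected with tamoxifen. The mutant pups also carried the conditional allele Tsc2 tm1.1Mjg, from which Cre removes a floxed part in cells that express Nestin. Sample titles read Control and TSC, and the names of the value columns hold WTWT and FLFL. The oxygen level of the cultures was not given in the sources used here.

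HIFs are pairs of an alpha subunit, which is made continuously and destroyed when oxygen is present, and the stable subunit ARNT. In oxygenated cells the EGLN enzymes hydroxylate prolines of the alpha subunit, VHL binds the hydroxylated form, and a ubiquitin ligase built on VHL sends it to the proteasome. HIF1AN, also called FIH, hydroxylates an asparagine and so keeps the coactivators p300 and CBP away. This control acts on protein, which was not measured here, and transcript levels do not report it. In many cell types mTORC1, the growth kinase complex that the Tsc2 product tuberin restrains, raises the production of HIF-1 alpha, and Egln1 and Egln3 are themselves induced by HIFs.

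Values are gene counts that the authors normalised with DESeq2, and differences are mut/mut minus wt/wt means of log2(value + 1), called log2 fold changes, which understate the change of scarce genes, with standard errors and adjusted p values from limma over 13964 genes. Calls were made below an adjusted p of 0.05. Estimated depth was 23.7 M to 55.3 M reads (M, mega) per library, with mut/mut replicate 3 the shallowest. These estimates are rough, since read numbers could not be recovered from the values. Normalised totals came to between 29 M and 30.4 M in wt/wt and between 45 M and 55.7 M in mut/mut. Because these totals differ, 2 other scalings are given where they matter, with every library brought to the same total (equal totals) and with each library's trend on transcript GC content and length taken out (GC-adjusted). Tsc2 itself was higher in mut/mut (log2 fold change 1.02 ± 0.20, SE, adjusted p = 0.00101). It was not called at equal totals (0.31, adjusted p = 0.0812) and was at 1.30 (adjusted p = 4.81e-05) when GC-adjusted. Its reads cover exons outside the floxed part too, so this value is no check on the genotype. The study reports that its NSC subcultures had lost Tsc2, and shows tuberin blots of the NSCs that it sequenced. The NSC markers Nes, Sox2, Vim, Pax6, Fabp7, Egfr and Hes5 were present in all 6 libraries, but not at steady levels. Fabp7, Sox2 and Pax6 fell in mut/mut (log2 fold changes -2.43, -1.28 and -0.54), Hes5 and Vim rose (2.23 and 0.66), and Nes and Egfr were not called. Vim was not called at equal totals (-0.06), nor was Pax6 when GC-adjusted (-0.22). Nes and Egfr were called lower at equal totals (-1.29 and -0.93). When GC-adjusted Egfr was called higher (2.18) and Nes was not called (-0.36). The Y-linked gene Ddx3y was at 890.7, 866.9 and 931.9 normalised counts in wt/wt and at 7.4, 4.4 and 2.5 in mut/mut, so the sex of the cultures and the genotype cannot be told apart. Nothing in the labels says that the 3 cultures of a genotype came from separate animals, and p values measure the spread between these cultures.

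Of the 9 genes 8 were called between genotypes, 6 of them lower and 2 higher in mut/mut. The alpha subunits, Arnt, Egln1 and Egln3 fell, Egln2 and Hif1an rose, and Vhl did not pass the test. Most genes of the table were called too, 75.5% in either direction, 38.7% lower and 36.8% higher, so a count of 8 of 9 called is close to that background. The share that fell was 66.7%, and the median log2 fold change of the 9 genes was -1.24, against -0.07 over all genes tested. The groups did not overlap for any of the 9 genes, Vhl included, and did not overlap for 80.6% of all genes tested (39.4% higher and 41.2% lower in mut/mut). At equal totals 1 member was higher and 7 were lower, beside 20.6% and 54.5% of all genes (75.1% together). GC-adjusted, 2 were higher and 6 lower, beside 40.7% and 29.6% (70.4% together). At a stricter limit (adjusted p below 1e-05, with a log2 difference beyond 1 in either direction), which 13.4% of all genes tested passed, Epas1 was the single member to pass. All 9 genes passed the filter on low values, Hif3a through the wt/wt libraries only, so that it had to differ in order to be tested. In bulk RNA, fewer cells of a type and less RNA per cell cannot be told apart.

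**Figure D1:**
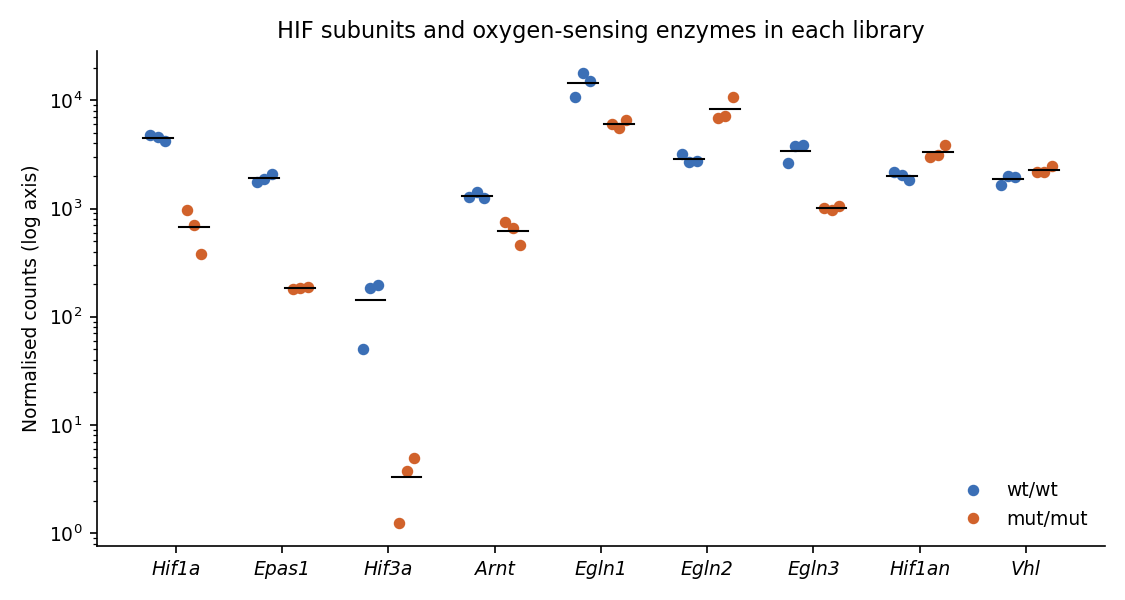
Normalised counts (log axis) of the HIF subunits and oxygen-sensing enzymes in each library. Points are libraries in the order replicate 1, 2 and 3, blue for wt/wt and orange for mut/mut, and bars are group means. The groups do not overlap for any gene, Epas1 is at 179 to 187.6 in mut/mut against 1775 to 2099 in wt/wt, and Egln1 and Egln2 exchange places.

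Hif1a encodes the most widely expressed alpha subunit (mm10, chromosome 12, 73901375 to 73947530, plus strand). In normalised counts it was at 4735, 4609 and 4173 in wt/wt replicates 1 to 3 (mean 4506 ± 295.2 SD, n = 3) and 960.5, 703.8 and 377.6 in those of mut/mut (680.6 ± 292.1). No mut/mut library came near a wt/wt library, and the mut/mut libraries were the more uneven group, with coefficients of variation of 42.9% against 6.55%. In log2 units Hif1a fell by 2.82 ± 0.29 (adjusted p = 1.16e-05), which placed it below all but 9.95% of the genes tested. It was at -0.84 (adjusted p = 0.00135) in GC-adjusted values, so much of its size depended on that setting. The exons of Hif1a share 330 bases (5.6% of their length) with the antisense gene Gm15283, and without a stated strand setting reads of the pair could not be separated. Hif1a exons also share 148 bases (2.5%) with Gm49321, a protein-coding gene on the same strand, which no strand setting would separate.

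Epas1, which encodes HIF-2 alpha (chromosome 17, 86753700 to 86833410, plus strand), had the smallest adjusted p of the 9 genes. In normalised counts it came to 1775, 1880 and 2099 in wt/wt (mean 1918 ± 165.2 SD, n = 3) and 179, 182.8 and 187.6 in mut/mut (183.2 ± 4.33). The mut/mut values lay within a narrow band, with a coefficient of variation of 2.36%, and the mean was 10.5 times lower than in wt/wt. Epas1 fell by 3.38 ± 0.17 (adjusted p = 2.7e-07), with -3.14 when GC-adjusted. In the brain Epas1 is abundant in endothelial cells. The endothelial markers Pecam1, Cldn5, Cdh5, Tek and Kdr summed to 35.9 to 49.5 normalised counts in wt/wt and 42.5 to 59.9 in mut/mut, and of the 2 tested 0 were lower and 1 was higher. All were scarce, and these sums cover opposite moves. Pecam1, not tested, was at 9.96, 18.7 and 23.4 in wt/wt and at 2.58, 4.8 and 0 in mut/mut. The means of Cldn5, also not tested, and Kdr were 0.249 and 9.34 in wt/wt and 8.66 and 21.4 in mut/mut. Markers of most other cell types moved with the genotype. All 4 oligodendrocyte precursor markers fell (summed normalised counts 9965 to 15436 in wt/wt and 1139 to 2046 in mut/mut), as did the 3 myelinating oligodendrocyte markers tested (2407 to 10341 and 65.1 to 124.6). Of the 4 astrocyte markers tested, Aqp4, S100b and Slc1a2 fell (-3.42, -2.59 and -3.08) and Aldh1l1 rose by 1.57, and the sum, mostly Aldh1l1, was 21628 to 31540 and 51229 to 80603. Of the 5 neuroblast and neuron markers 3 fell, Dcx among them (-6.71), and 1 rose (sums 922.3 to 1439 and 1149 to 1965). Of the 4 pericyte and smooth muscle markers tested Acta2 rose by 5.87 and Cspg4, also a precursor marker, fell by 2.58 (sums 6780 to 10374 and 3841 to 6929). Of the 4 microglial markers tested 3 were lower (sums 56.1 to 201.6 and 8.25 to 26.1), namely Cx3cr1, Aif1 and Ptprc, which were at 0 in every mut/mut library, passed the filter through wt/wt only and so had to be lower to be tested. The ependymal markers summed to 647 to 991.9 and to 5766 to 8405, mostly Foxj1, which rose by 3.01. Ccdc153, the other of the 2 tested, was scarce and not called (0.38). Tmem212, not tested, was at 0, 0 and 1.72 in wt/wt and at 0 in every mut/mut library. These marker genes were named after their values were seen, and the part of these cell types in the differences of the 9 genes was not tested.

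Hif3a encodes an alpha subunit with shorter forms that dampen HIF activity (chromosome 7, 17031507 to 17062427, minus strand). It was scarce, at normalised counts of 50.6, 183.8 and 194.6 in wt/wt (mean 143 ± 80.2 SD, n = 3) and 1.24, 3.73 and 4.99 in mut/mut (3.32 ± 1.91). By a rough estimate of the worth of a single read in each library, the mut/mut values came to about 1, 4.1 and 2.1 reads, which is near the limit of detection. The log2 fold change was -4.95 ± 0.57 (adjusted p = 2.55e-05) and ran from -5.16 to -3.34 with pseudocounts of 0.5 and 10, so its size is not settled. The forms of Hif3a could not be separated in values for whole genes.

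Arnt encodes the beta subunit shared by all 3 alpha subunits and by the dioxin receptor (chromosome 3, 95434388 to 95497240, plus strand). It was present at 1269, 1408 and 1257 normalised counts in wt/wt (mean 1311 ± 83.7 SD, n = 3) and 742.6, 653.7 and 461.7 in mut/mut (619.4 ± 143.6). Arnt fell by 1.11 ± 0.20 (adjusted p = 5.76e-04), with mut/mut replicate 3 again the lowest library, and stood at -0.58 (adjusted p = 0.00286) when GC-adjusted. Arnt2, a neural paralogue that also pairs with HIF alpha subunits, was at 9298, 7732 and 7594 in wt/wt (mean 8208 ± 946.8 SD, n = 3) and at 6784, 7190 and 7013 in mut/mut (6996 ± 203.3). Its log2 fold change was -0.22 ± 0.15 and did not pass the test (adjusted p = 0.191). It was at -0.94 (adjusted p = 3.5e-04) at equal totals and at 0.25 (adjusted p = 0.0687) in GC-adjusted values, so no direction is given for it. Per kilobase of exon, Arnt2 stood at 1068 ± 123.1 and 909.8 ± 26.4 normalised counts in wt/wt and in mut/mut, where Arnt stood at 163.8 ± 10.5 and 77.3 ± 17.9 (SD, n = 3 each). The beta subunit transcripts of these cultures were thus mainly those of Arnt2 in either genotype.

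Levels of the alpha subunits were compared per kilobase of annotated exon. Summed over Hif1a, Epas1 and Hif3a they came to 1128, 1145 and 1112 normalised counts per kilobase in wt/wt and to 195.1, 152.6 and 98.4 in mut/mut. Hif1a held 67.7% ± 3.81 of the sum in wt/wt and 75.6% ± 9.46 in mut/mut, and Epas1 30.4% ± 2.95 and 24% ± 9.13 (SD, n = 3 each). Within a library the ratio does not depend on a scale factor that all its genes share. Whether the deposited values carry a single factor per library was not known. The log2 ratio of Epas1 to Hif1a was -1.41, -1.29 and -0.99 in wt/wt and -2.42, -1.94 and -1.01 in mut/mut, groups that overlap, and the difference of -0.55 was within their spread (exact two-sided permutation p = 0.3). In GC-adjusted values that difference was -2.29 and exceeded the spread as far as 3 against 3 can show (exact permutation p = 0.1), and the transcripts of Hif1a and Epas1 differ in GC content (41.3% and 52.5%). The log2 ratio of Hif1a to Arnt was 1.90, 1.71 and 1.73 in wt/wt and 0.37, 0.11 and -0.29 in mut/mut, a difference of -1.72 with no overlap (two-sided exact permutation test, p = 0.1, the lowest possible with groups of 3), and of -0.27 when GC-adjusted.

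**Figure D2:**
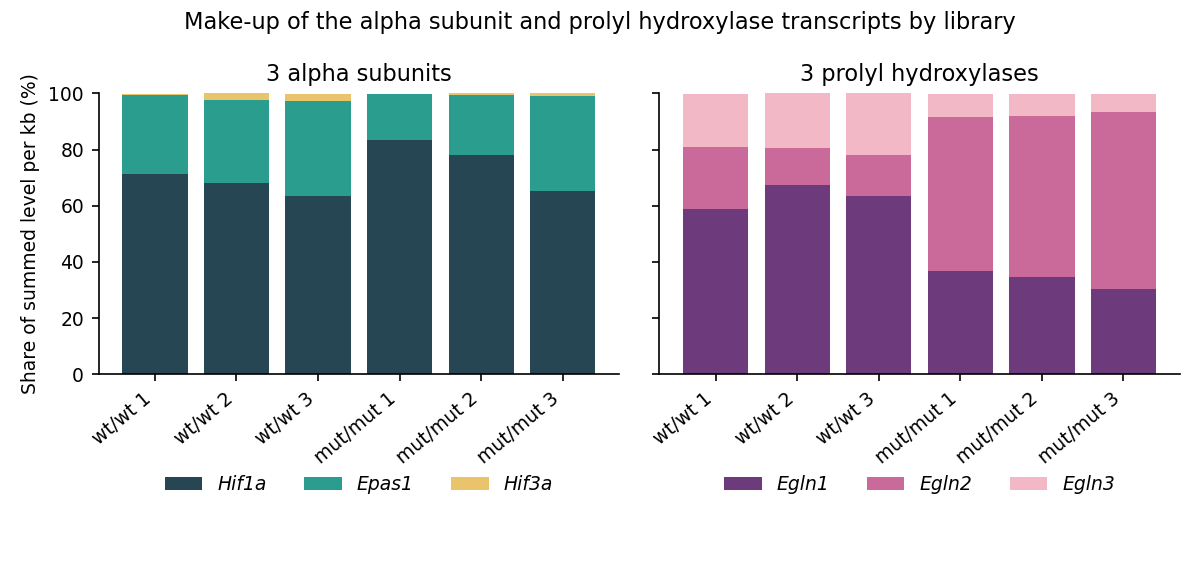
Make-up of the alpha subunit transcripts (left) and the prolyl hydroxylase transcripts (right) in each library, as percent of their summed level per kilobase of exon. Hif1a holds 63.6% to 83.5% of the alpha sum in all 6 libraries, whereas Egln2 holds 13.1% to 22.1% of the hydroxylase sum in wt/wt and 54.6% to 63.1% in mut/mut.

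The prolyl hydroxylases went in opposite directions. Egln1 encodes PHD2, the main oxygen sensor of most cells (chromosome 8, 124908587 to 124949324, minus strand). In normalised counts it stood at 10812, 17784 and 15016 in wt/wt (mean 14537 ± 3511 SD, n = 3) and 5991, 5551 and 6622 in mut/mut (6055 ± 538.6). Egln1 fell by 1.24 ± 0.19 (adjusted p = 2.03e-04), with -1.95 at equal totals and -1.80 when GC-adjusted. The wt/wt group was uneven, with replicate 1 the lowest, and that library still exceeded every mut/mut library.

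Egln3 encodes PHD3, a hydroxylase that hypoxia induces strongly in many cells (chromosome 12, 54178981 to 54203860, minus strand). It was at 2613, 3782 and 3832 normalised counts in wt/wt (mean 3409 ± 689.6 SD, n = 3) and 1021, 968.1 and 1063 in mut/mut (1018 ± 47.7). Egln3 fell by 1.72 ± 0.18 (adjusted p = 1.5e-05), with -2.17 when GC-adjusted. As for Egln1, wt/wt replicate 1 was the lowest of its group.

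Egln2 encodes PHD1, a mainly nuclear hydroxylase (chromosome 7, 27158658 to 27166802, minus strand). In normalised counts it reached 3172, 2683 and 2728 in wt/wt (mean 2861 ± 270.3 SD, n = 3) and 6915, 7186 and 10723 in mut/mut (8275 ± 2124). Egln2 rose by 1.51 ± 0.19 (adjusted p = 4.99e-05), above 87.9% of the genes tested, with mut/mut replicate 3 the highest library. The rise was 0.79 at equal totals and 0.55 in GC-adjusted values (adjusted p = 7.34e-04 and 0.00163).

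Per kilobase of exon, Egln1 led the prolyl hydroxylases in every wt/wt library and Egln2 in every mut/mut library. The log2 ratio of Egln2 to Egln1 was -1.77, -2.73 and -2.46 in wt/wt and 0.21, 0.37 and 0.70 in mut/mut, a difference of 2.74, and of 2.34 in GC-adjusted values. The log2 ratio of Egln3 to Egln1 was -2.05, -2.23 and -1.97 against -2.55, -2.52 and -2.64, a difference of -0.49, and of -0.38 when GC-adjusted. Neither ratio overlapped between groups, and each two-sided exact permutation test gave p = 0.1, the lowest possible with groups of 3. In all 4 ratios were tested within libraries, and with groups of 3 no such test can pass a threshold of 0.05. The summed level of the prolyl hydroxylases was 5123, 7327 and 6592 normalised counts per kilobase in wt/wt and 4520, 4474 and 6072 in mut/mut, so the sums overlapped while their make-up did not.

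The upstream sequences of these 3 genes are shown because Egln1 and Egln3 fell while Egln2 rose, and because HIFs bind a short core, ACGTG or GCGTG. They are RefSeq windows of GRCm38.p6, the assembly of mm10, written along the gene's own strand, with the core on either strand (CACGT and CACGC on the other) in capitals. The Egln1 window stops where the annotated GENCODE transcript begins, at base -72 from the RefSeq start site, and the others run from base -250 to base -1.
Egln1, chr8:124949326-124949504, minus strand: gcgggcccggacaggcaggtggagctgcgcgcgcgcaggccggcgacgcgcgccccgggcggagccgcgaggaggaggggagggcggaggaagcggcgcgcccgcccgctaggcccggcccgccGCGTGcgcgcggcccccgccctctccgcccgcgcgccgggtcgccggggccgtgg
Egln3, chr12:54203875-54204124, minus strand: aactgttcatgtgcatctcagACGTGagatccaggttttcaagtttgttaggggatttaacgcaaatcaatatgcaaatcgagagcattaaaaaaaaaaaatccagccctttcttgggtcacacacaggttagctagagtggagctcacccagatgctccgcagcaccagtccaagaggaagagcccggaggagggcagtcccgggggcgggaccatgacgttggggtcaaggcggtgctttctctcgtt
Egln2, chr7:27166803-27167052, minus strand: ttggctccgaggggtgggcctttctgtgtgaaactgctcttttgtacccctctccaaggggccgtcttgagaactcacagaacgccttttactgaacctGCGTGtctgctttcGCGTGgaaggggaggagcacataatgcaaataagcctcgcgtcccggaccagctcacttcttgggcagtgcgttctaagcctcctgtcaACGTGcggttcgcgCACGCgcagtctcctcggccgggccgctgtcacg
Egln2 held 4 matches, which begin at bases -151, -137, -48 and -34, and its other window, upstream of a second start at 27165728, held 1, at base -116. Egln3 held 1 match, at base -229. Egln1 held 1 in the printed stretch, at base -126, and a further match at base -68. The core is common, since 38.6% of all 32851 windows of the same length had at least 1 match, 16.7% had 2 or more and 2.58% had 4 or more. ACGTG and CACGT overlap in the run CACGTG and were counted at each start. Of the members 8 had a window, and 6 of these had a match in at least 1 window. Vhl and Hif1an had none in theirs. These matches are letters in a window, and binding was not measured.

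Hif1an (chromosome 19, 44562850 to 44576274, plus strand), the asparaginyl hydroxylase, was at 2180, 2039 and 1816 normalised counts in wt/wt (mean 2012 ± 183.2 SD, n = 3) and at 2988, 3096 and 3852 in mut/mut (3312 ± 471.3). Hif1an rose by 0.71 ± 0.16 (adjusted p = 0.00252) and by 1.24 (adjusted p = 3.69e-05) in GC-adjusted values. At equal totals it was at 0.00 (adjusted p = 0.996), so the call depends on how libraries were scaled. Vhl (chromosome 6, 113623959 to 113631633, plus strand) was at 1646, 1999 and 1946 in wt/wt (mean 1864 ± 190.4 SD, n = 3) and at 2164, 2188 and 2470 in mut/mut (2274 ± 170.3). Its log2 fold change of 0.29 ± 0.16 did not pass the test (adjusted p = 0.116). It was at -0.42 (adjusted p = 0.0234) at equal totals and at 0.07 (adjusted p = 0.626) when GC-adjusted.

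**Figure D3:**
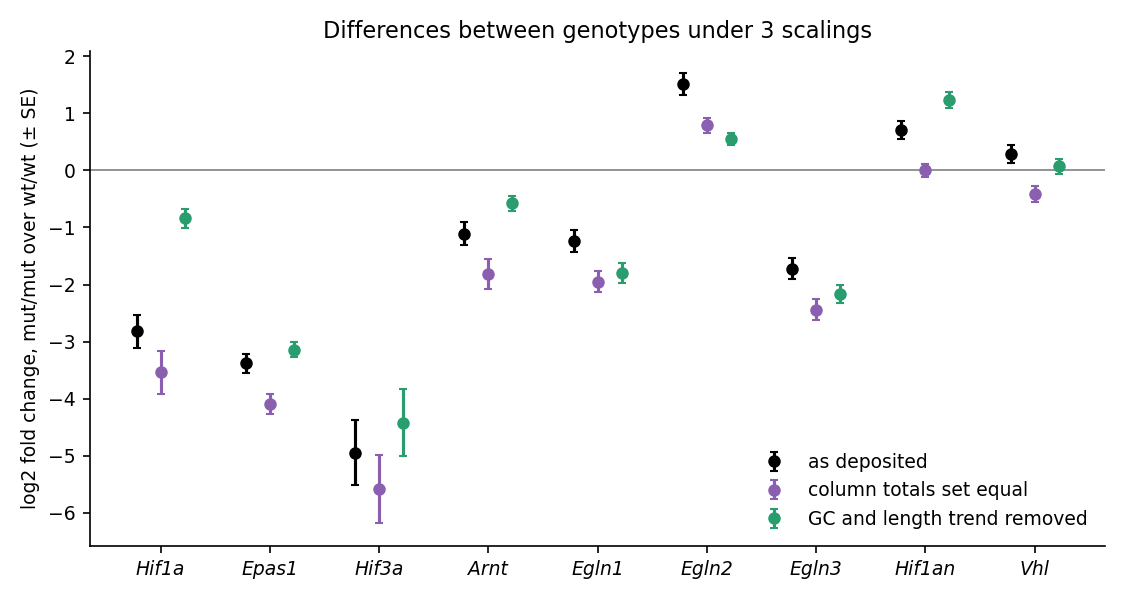
Log2 fold change (mut/mut over wt/wt, ± SE of the limma fit) of each gene as deposited (black), at equal totals (purple) and GC-adjusted (green). Epas1 stays between -4.09 and -3.14, Hif1a moves from -2.82 to -0.84 when GC-adjusted, and Vhl and Hif1an cross or reach 0 at equal totals.

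In wt/wt the order of levels per kilobase of exon, from the highest, was Egln1, Egln3, Egln2, Hif1a, Vhl, Epas1, Hif1an, Arnt and Hif3a. They ran from 4045 ± 976.9 for Egln1 and 764.2 ± 50.1 for Hif1a to 21.3 ± 12 normalised counts per kilobase for Hif3a (SD, n = 3 each). Library values of neighbours overlapped for Egln3 and Egln2 and for Epas1 and Hif1an, and for no other neighbours. In mut/mut the order was Egln2, Egln1, Vhl, Hif1an, Egln3, Hif1a, Arnt, Epas1 and Hif3a, where the ranges of Hif1a and Arnt overlapped although Hif1a was the higher in each of the 3 libraries. Egln2, Egln1, Vhl and Hif1an, which all act to restrain HIFs, held the first 4 places there.

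Transcript GC content moved with the difference between genotypes across the table. Spearman's rho between GC content and log2 fold change was 0.56 across 13813 genes, which share the same 6 libraries and are not independent. Among the members Hif1a had the lowest GC content (41.3%, with 9.36% of tested genes lower) and Egln2 the highest (62.2%, with 98.1% lower), and these are the members whose differences shrank most in GC-adjusted values. Epas1, Hif3a, Egln3 and Hif1an lay between 51.4% and 52.5%, near the median of 50%. They span log2 fold changes from -4.95 to 0.71 at nearly the same GC content.

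**Figure D4:**
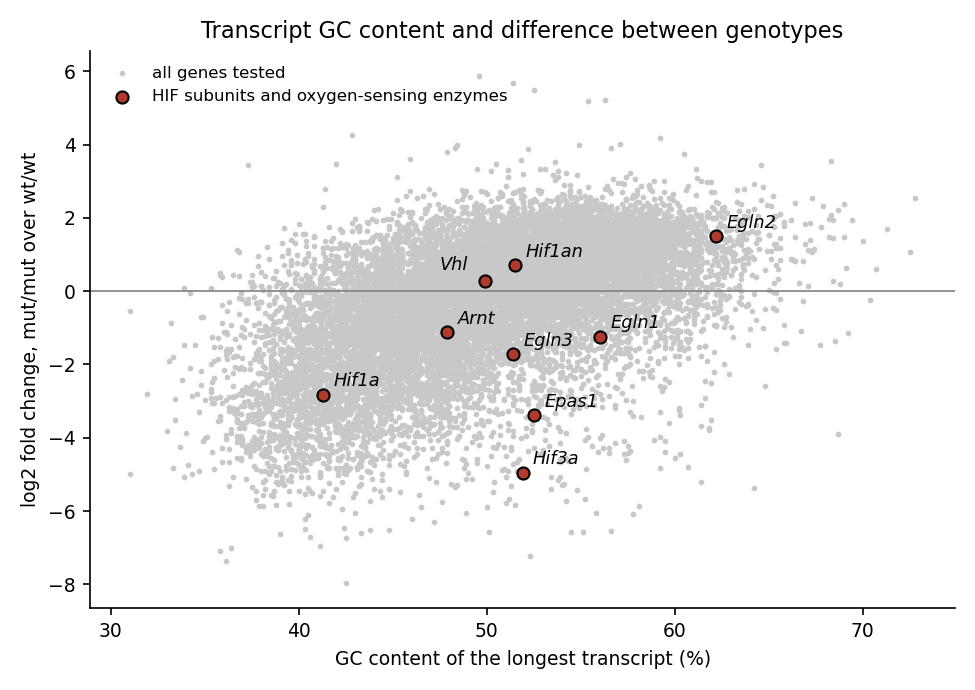
GC content of the longest annotated transcript (percent, horizontal) and log2 fold change of mut/mut over wt/wt (vertical) for all genes tested (grey) and the 9 HIF subunits and oxygen-sensing enzymes (red). Hif1a at 41.3% and Egln2 at 62.2% lie inside the main cloud, and Epas1, Hif3a and Egln3 lie low for their GC content.

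Most of the listed HIF target genes were lower in mut/mut, in a list chosen with earlier results of these data known. Of 38 listed genes 37 were tested, and 28 fell (75.7%, where 38.7% of all genes tested fell). A further 2 rose (5.41%, beside 36.8%), and the median log2 fold change of the list was -2.22. At equal totals 32 were lower (86.5%) and 0 higher, beside 54.5% and 20.6% of all genes (median -2.93, against -0.77 over all genes). In GC-adjusted values 32 were lower (86.5%) and 1 higher (2.7%), beside 29.6% and 40.7% (median -1.51, against 0.14 over all genes). Pdk1, which restrains pyruvate dehydrogenase, was at 4904, 8947 and 8296 normalised counts in wt/wt and at 154.4, 134.1 and 159.8 in mut/mut, and fell by 5.57 ± 0.23 (adjusted p = 1.68e-07). Vegfa, the angiogenic factor, was at 16835, 37079 and 37669 against 1094, 993.7 and 907.2. The mitophagy receptor Bnip3 was at 6057, 11694 and 10265 against 323.3, 350.2 and 275.4, and the lactate exporter Slc16a3 at 4069, 9431 and 8183 against 87.5, 44 and 96.3. The 2 that rose were Pfkfb4, a regulator of glycolysis, by 1.18 ± 0.19 (adjusted p = 2.7e-04) and the aldolase Aldoa by 0.53 ± 0.22 (adjusted p = 0.0483), and at equal totals neither was called (0.47 and -0.19), while Aldoa was at -0.53 in GC-adjusted values. Ldha, lactate dehydrogenase A (log2 fold change 0.20 ± 0.19, adjusted p = 0.336), and Ddit4, which restrains mTORC1 (0.04 ± 0.29, adjusted p = 0.905), did not pass the test as deposited. Ldha was called lower at equal totals (-0.51, adjusted p = 0.0122) and in GC-adjusted values (-0.46, adjusted p = 0.0187), and Ddit4 in GC-adjusted values (-0.99, adjusted p = 0.0114). They were named after their values were seen.

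**Figure D5:**
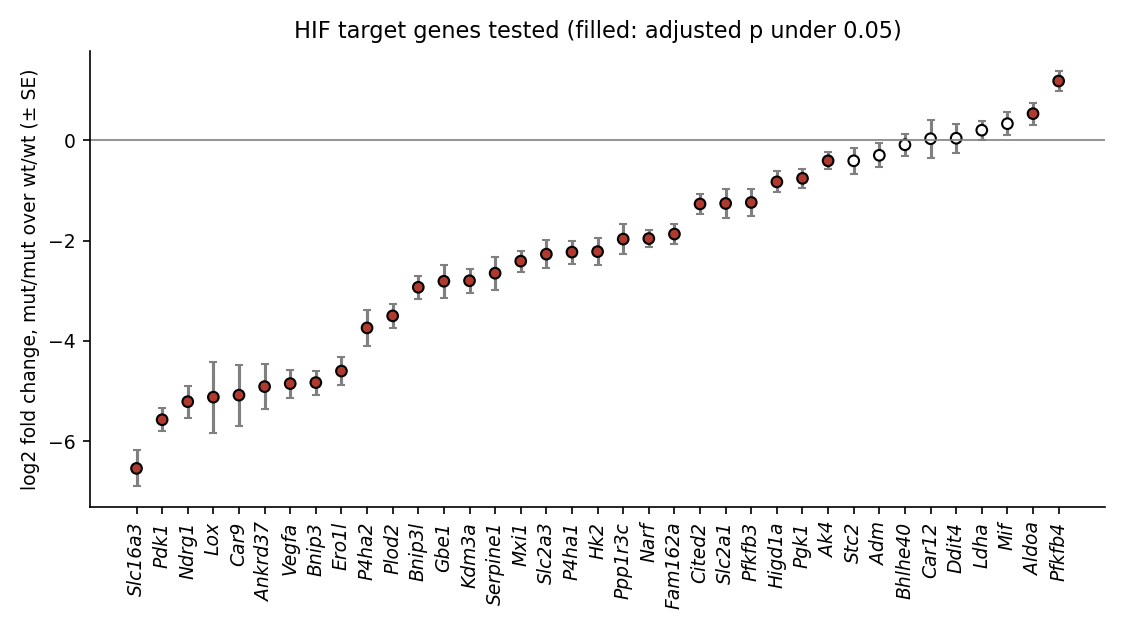
Log2 fold change (mut/mut over wt/wt, ± SE of the limma fit) of the 37 HIF target genes tested, in order of size. Filled points have an adjusted p under 0.05, and 28 of these lie below 0 and 2 above.

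The wt/wt libraries differed among themselves in these target genes. Replicate 1 was the lowest wt/wt library for 33 of the 37 genes (89.2%, against 32.4% of all genes tested), with a median log2 difference from the other replicates of -0.80, against 0.07 over all genes. Car9, a carbonic anhydrase, was at 318.2 in wt/wt replicate 1 and at 1323 and 2369 in replicates 2 and 3, and was named after its values were seen. Among the members, Hif3a, Egln1 and Egln3 lay lower in that library than in the others (log2 differences -1.88, -0.60 and -0.54), Vhl, Epas1 and Arnt lay lower by less (-0.26, -0.16 and -0.07), and Hif1a, Hif1an and Egln2 lay higher, by 0.11, 0.18 and 0.23. Without wt/wt replicate 1 the log2 fold changes of Hif3a, Egln1 and Egln3 were -5.58, -1.44 and -1.90. What set that library apart was not tested.

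Partners of VHL were divided. VHL acts in a ligase with elongin B (Elob), elongin C (Eloc), the scaffold CUL2 and the RING protein RBX1, and all 4 transcripts were called, as were 75.5% of all genes. Elob rose by 1.60 ± 0.17 and Rbx1 by 1.17 ± 0.16, whereas Eloc fell by 1.41 ± 0.19 and Cul2 by 1.11 ± 0.23 (adjusted p = 1.68e-05, 8.1e-05, 6.3e-05 and 0.00114). Rbx1 was at 8359, 8343 and 8326 normalised counts in mut/mut and at 4435, 3231 and 3572 in wt/wt. In GC-adjusted values all 4 were higher, Eloc by 0.40 and Cul2 by 0.72, so the falls of Eloc and Cul2 reversed in that setting.

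Of 12 listed relatives of the HIF subunits with the same bHLH-PAS fold 10 were tested, and 8 fell (80%, beside 38.7% of all genes) and 0 rose (median log2 fold change -1.80). In GC-adjusted values 4 fell (40%, beside 29.6%) and 0 rose. The clock factor Clock fell by 3.52 ± 0.22, and Npas3, a factor of neural progenitors, by 3.11 ± 0.20 (adjusted p = 6.59e-07 and 9.75e-07). Npas2, a relative of Clock, fell by 1.96, and Ahrr, the repressor of the dioxin receptor, by 2.09. When GC-adjusted Clock was at -0.50 (adjusted p = 0.105) and Ahrr at -0.46 (adjusted p = 0.296), and Npas3 and Npas2 were still called, at -1.95 and -2.11.

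Of 21 coactivators and stability factors of HIFs 10 were higher (47.6%, beside 36.8% of all genes) and 9 lower (42.9%, beside 38.7%). At equal totals 4 were higher and 11 lower (19.0% and 52.4%, beside 20.6% and 54.5%), and in GC-adjusted values 7 and 9 (33.3% and 42.9%, beside 40.7% and 29.6%). Hsp90aa1, a chaperone that holds the HIF alpha subunits, fell by 3.50 ± 0.19, and so did the deacetylase Sirt1 (-2.90), the coactivator Ncoa2 (-2.32) and the deubiquitinase Usp33 (-2.80). Rack1, a ribosomal protein that also promotes oxygen-independent loss of HIF-1 alpha, rose by 2.14 ± 0.18, the ligase Stub1 by 1.91, the chromatin factor Mta1 by 1.20 and the ligase Siah2, which acts on EGLN enzymes, by 1.20. In GC-adjusted values Hsp90aa1, Sirt1, Ncoa2 and Usp33 were at -2.41, -1.53, -0.91 and -1.32. Rack1, Stub1, Mta1 and Siah2 were at 2.56, 0.87, 0.43 and 0.36 in that setting. Ep300 and Crebbp, which encode the p300 and CBP that HIF1AN keeps away, fell by 1.96 ± 0.20 and 2.41 ± 0.27 (adjusted p = 9.82e-06 and 1.85e-05), and by 0.87 and 1.28 in GC-adjusted values. Both were named after their values were seen. Cited2, which fell by 1.27, is in the HIF target list too and was named for that overlap.

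The last list holds 28 genes, other enzymes that use oxygen and 2-oxoglutarate, as the EGLN enzymes do, and the oxygen-sensing thiol dioxygenase Ado. Of these 15 were lower (53.6%, beside 38.7% of all genes) and 9 higher (32.1%, beside 36.8%). The DNA demethylases Tet2 and Tet1 fell (-4.43 ± 0.22 and -4.47 ± 0.29), as did the collagen lysyl hydroxylase Plod2 (-3.50 ± 0.24) and the histone demethylase Kdm6a (-2.97 ± 0.23). The HIF target list also holds Plod2, Kdm3a, P4ha1 and P4ha2, which all fell, so the falls of the 2 lists are partly the same genes. Kdm3a, P4ha1 and P4ha2 were named for that overlap. Riox1, a ribosomal protein hydroxylase, rose by 2.08 ± 0.19, the RNA demethylase Fto by 1.05 ± 0.16, Ado by 0.75 and Riox2 by 0.73, though Ado and Riox2 were at 0.03 and 0.01 at equal totals and were not called there. In GC-adjusted values Tet2, Tet1, Plod2 and Kdm6a were at -2.34, -1.65, -2.17 and -0.85. Riox1, Fto, Ado and Riox2 were at 1.17, 1.67, 1.25 and 1.03 in that setting. When GC-adjusted 12 were lower and 6 higher (42.9% and 21.4%, beside 29.6% and 40.7%), and at equal totals 19 and 2 (67.9% and 7.14%, beside 54.5% and 20.6%).

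Genes with the most similar profiles were sought among those with a mean of at least 100 normalised counts, by the root mean square distance of centred log2 values over the 6 libraries. For Epas1 they were Klf9, Zfp748 and Usf3, at distances of 0.108, 0.113 and 0.122, and 34 genes lay within 0.2. For Egln3 they were Ankzf1, 2610316D01Rik and Gigyf1, at 0.064, 0.09 and 0.103, with 59 genes within 0.2. For Arnt they were Seh1l, Zfp426 and Insig1, at 0.045, 0.049 and 0.055, with 623 genes within that distance. The profile of Hif3a had no gene within 0.2, and its nearest, Trpm2, Ankrd37 and Ndufa4l2, named after their values were seen, lay at 0.339, 0.379 and 0.431.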

How the data were processed

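Poly(A) RNA of 6 NSC cultures was measured as read pairs. The study's methods and the processing notes of the submitters name adapter trimming, alignment to mm10 by STAR and normalisation of counts by DESeq2. Which counter, annotation release and strandedness were used was not given in the sources used here. The authors deposited these as a normalised signal (normalised count) for each gene in each library. The most common low value of a library was taken as the worth of 1 read, but only 28% to 57.7% of low values lay within 0.1 of a multiple of it, so read numbers could not be recovered and count models were not used. Estimated reads are values divided by that step. The name of the wt/wt replicate 2 column departs from the label by 1 digit. Dates stand in place of 26 gene names.

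Values were used as log2(value + 1) without further scaling. A mean of 10 or more left 13964 genes, fitted on genotype with limma 3.58.1 in R 4.3.3 (mean-variance trend, robust). P values are two-sided and Benjamini-Hochberg adjusted across all genes fitted. This was tested on simulated data. Ratios within a library were compared by exact permutation. Annotation, exon and transcript lengths and GC content came from GENCODE M21, read with python 3.11.15, and promoter windows from RefSeq. For GC-adjusted values, each library's deviation from the gene mean was regressed on splines (5 degrees of freedom each) of transcript GC content and log length, for 13813 genes (98.9%).

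The other settings tried were pseudocounts of 0.5 and 10, no filter, a mean of at least 100, equal column totals, GC adjustment, a fit without trend and robust settings, a block on replicate number, that block with GC adjustment, and leaving out each library. The longest transcript replaced the union of exons for levels per kilobase. The differences from the median gene, and the comparison of wt/wt libraries with each other, were added after seeing the data. The 9 members and the 5 gene lists were chosen with earlier results of these data known. Genes were named by rule, namely the members, Tsc2, Arnt2 and up to 4 called genes per list and direction with the smallest adjusted p. The rule also took the 3 nearest profiles of Epas1, Egln3 and Arnt, and other names are marked in the text. Exceptions are Ddx3y, named outside the rule for the sex of the cultures, and Gm15283 and Gm49321, named for their overlap with Hif1a. A marker gene of the NSC list is not reported here.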

Additional observations from a re-analysis of the deposited data

How the results depend on the processing

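Of the 9 genes 8 were called under 14 of the 15 other settings and 7 with a mean of at least 100, where Hif3a was not tested. At equal totals the 8 included Vhl and not Hif1an. The median gene stood at -0.07 as deposited, -0.77 at equal totals and 0.14 when GC-adjusted. At equal totals Vhl was at -0.42, Hif1an at 0.00, Arnt2 at -0.94 and Tsc2 at 0.31, and mut/mut was higher for 2874 genes and lower for 7612 (5135 and 5407 as deposited). GC-adjusted, 5626 were higher and 4093 lower, Arnt2 was at 0.25, and Vhl lay at -0.07 from the median gene, against 0.36 as deposited. The bHLH-PAS calls went from 8 to 3 with a mean of at least 100 (fewer genes tested), to 4 when GC-adjusted and to 3 with the replicate block and GC adjustment. The 2 rises among HIF targets became 1 with no filter, without trend and robust settings and when GC-adjusted (with or without the block), and 0 at equal totals. Where no cause is named, the cause was not tested.

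Leaving out single libraries gave Hif1a -3.12 to -2.45, Epas1 -3.43 to -3.31, Hif3a -5.58 to -4.53, Arnt -1.25 to -0.91, Egln1 -1.44 to -1.08, Egln2 1.30 to 1.62, Egln3 -1.90 to -1.63, Hif1an 0.60 to 0.78 and Vhl 0.20 to 0.34. It left 1 to 2 HIF targets higher and 27 to 30 lower, with 1 higher without wt/wt replicate 1, wt/wt replicate 3 or mut/mut replicate 3. It moved the Epas1 to Hif1a difference from -0.55 to between -0.94 and -0.24.

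Replicate numbers were shared between genotypes, but deviations of same-numbered libraries correlated at 0.112, -0.004 and 0.071 and the numbers were not taken as pairs. With the replicate block 10576 genes were called, against 10542 without, and the calls of the 9 genes were the same. Not every library correlated best with its own number.

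Depth limits Hif3a in mut/mut, at roughly estimated reads of 1 to 4.1. Levels per kilobase over the longest transcript were 953.8 for Hif1a, 303.2 for Arnt and 1358 for Egln2 in wt/wt, which puts Egln2 above Egln3.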
